A study of Mus musculus with 6 samples.

Results

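Protease inhibitor genes and a hormone carrier gene of the blood were followed in injured kidney tubules: the 6 genes of the Serpina1 family (Serpina1a to Serpina1f), Serpina6 and Pzp. They are 8 of the 22206 transcript clusters tested, a transcript cluster being the array's unit of measurement and roughly a gene. Each symbol had 1 cluster in the value table. The 8 genes were chosen by symbol and family after the treatment differences of these arrays were known, in particular those of Serpina1f and Pzp, so their differences are given as a description and without a p-value.

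All 6 samples are tubular epithelial cells that collagenase had freed from the kidneys of mice. The kidneys had been without blood flow for 30 min and then reperfused for 24 h, which models acute kidney injury. In the vehicle group (labelled IR, 3 arrays) the mice received vehicle. In the PT2385 group (labelled IRPT, 3 arrays) they received 10 mg/kg of PT2385, a compound that blocks the pairing of HIF-2α, a hypoxia-inducible factor, with ARNT, 16 h before the operation and 1, 8 and 20 h after it. The treatment text writes the injected compound as PT2384, and IRPT was read as the PT2385 arm from its name. No uninjured sample was analysed here, and the labels give no strain, age or sex and do not say whether each array is a separate animal. The p-values given below for other genes therefore measure only the spread between these samples.

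The groups also differed in Y-linked transcripts. Summed over 3 measured Y-linked genes (Eif2s3y, Uty and Kdm5d), the signal was 10.07 to 10.09 under vehicle and 4.64 to 4.88 under PT2385, on the log2 scale. Taken singly, the 3 genes were at 2.85 to 3.37 in the PT2385 arrays. These values lay below 4.28, the lowest of the array medians of the negative control rows. For each difference below, effects of PT2385 and of the animals' sex cannot be told apart. The samples are bulk isolates, so fewer cells of a type and less RNA per cell cannot be told apart either.

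Serpins are protease inhibitors that work as a bait: the target protease cuts an exposed loop of the serpin and is then locked in a dead complex. Serpina1 encodes alpha-1-antitrypsin, the plasma inhibitor of neutrophil elastase, which mice make from a tandem array of near-identical genes where humans have a single gene. Serpina6 encodes corticosteroid-binding globulin, a serpin that inhibits no protease and carries glucocorticoids in the blood. Pzp encodes a protein of the alpha-2-macroglobulin type, a large plasma trap that encloses many kinds of protease and is cleared by the receptor LRP1. The liver is the main source of alpha-1-antitrypsin, corticosteroid-binding globulin and Pzp in the blood.

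Serpina1a to Serpina1e are so alike that a probe for one can bind transcripts of another, and their values are therefore uncertain as measures of single genes. The likeness is shown here by their promoters, since probe and protein sequences were not used here. RefSeq promoter windows (mouse GRCm38.p6) of 300 bases, from 250 before to 50 after the annotated start, were at hand for 7 of the 8 genes, Serpina6 being the exception. Over the 10 pairs among Serpina1a to Serpina1e, the local alignments were 234 to 300 columns long with 91.4% to 97.6% identity. The longest alignment of any of these windows with that of Serpina1f or Pzp, or between the latter, was 29 columns. The 60 bases around the shared GTTAAT follow for the 5 copies, 5′ to 3′ on the minus strand of chromosome 12, with GTTAAT in capitals.

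Serpina1a (chr12:103863605-103863664): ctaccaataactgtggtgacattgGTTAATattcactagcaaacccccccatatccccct
Serpina1b (chr12:103738180-103738239): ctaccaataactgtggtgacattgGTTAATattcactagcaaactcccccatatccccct
Serpina1c (chr12:103904942-103905001): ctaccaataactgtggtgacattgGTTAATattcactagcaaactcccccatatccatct
Serpina1d (chr12:103773614-103773673): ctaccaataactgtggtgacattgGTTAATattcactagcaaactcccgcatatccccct
Serpina1e (chr12:103956940-103956999): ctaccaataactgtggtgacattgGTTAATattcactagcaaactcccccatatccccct

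Against Serpina1a, with positions counted from 1 at the 5′ end of the window, Serpina1b and Serpina1e each differed by C45T alone. Serpina1d differed by C45T and C49G, and Serpina1c by C45T, C57A and C58T. The letters GTTAAT, the core of a motif of the liver and kidney factor HNF1, thus stood in the same surroundings in all 5 copies. On either strand GTTAAT was found in 7.1% of the 32851 promoter windows of the RefSeq table.

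The whole windows of Serpina1f and Pzp, the genes with the largest rise and fall among the 8, are shown next, on the minus strands of chromosomes 12 and 6. Capitals mark every match to the 4 motifs searched on both strands, which did not overlap one another in these windows.

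Serpina1f (chr12:103695480-103695779): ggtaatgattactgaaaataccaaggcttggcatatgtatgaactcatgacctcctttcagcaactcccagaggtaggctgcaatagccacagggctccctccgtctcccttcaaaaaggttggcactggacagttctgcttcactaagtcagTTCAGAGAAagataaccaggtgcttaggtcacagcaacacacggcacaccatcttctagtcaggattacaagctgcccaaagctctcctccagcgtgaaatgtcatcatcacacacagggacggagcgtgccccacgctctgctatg
Pzp (chr6:128526671-128526970): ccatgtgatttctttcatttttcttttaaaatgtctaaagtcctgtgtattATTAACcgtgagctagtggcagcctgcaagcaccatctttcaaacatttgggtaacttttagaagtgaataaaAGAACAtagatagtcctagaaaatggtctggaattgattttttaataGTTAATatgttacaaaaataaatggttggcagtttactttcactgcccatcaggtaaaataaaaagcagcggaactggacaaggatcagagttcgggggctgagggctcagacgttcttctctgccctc

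The first motif, ACGTG, is the core of the hypoxia response element and also lies within the E-box. The second was GTTAAT. The third, AGAACA, is part of the steroid receptor element, and TTCNNNGAA is the STAT motif. ACGTG was found in 0 of these 7 windows and in 19.6% of all windows. The windows of Serpina1a to Serpina1e are near-identical and do not count as separate cases, here or for the other motifs. Pzp had GTTAAT on both strands (as ATTAAC on the minus strand) and 1 AGAACA. Each of Serpina1a to Serpina1e had 1 GTTAAT and 1 AGAACA, the latter as TGTTCT. Serpina1f had neither and held 1 TTCNNNGAA. AGAACA was present in 19.0% and TTCNNNGAA in 8.3% of all windows. A match is a stretch of letters and not a measured site, and a missing match says only that these letters are not in the window.

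The deposited values are log2 signals, so a difference of 1 is a 2-fold change, and levels of different genes cannot be compared because their probes differ. Of the 8 genes, 6 had all 3 PT2385 arrays above all 3 vehicle arrays, where 11.6% of all clusters did. Only Pzp among the 8 had all PT2385 arrays below the vehicle arrays, where 9.13% of all clusters did. By limma over all clusters (adjusted p under 0.05), 3 of the 8 were higher, against 0.333% of all clusters, and 1 was lower, against 0.495%. These shares are given as background only, because the same contrast chose the genes. With each array centred on its median the calls over all clusters were 57 higher and 135 lower, in place of 74 and 110.

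**Figure D1:**
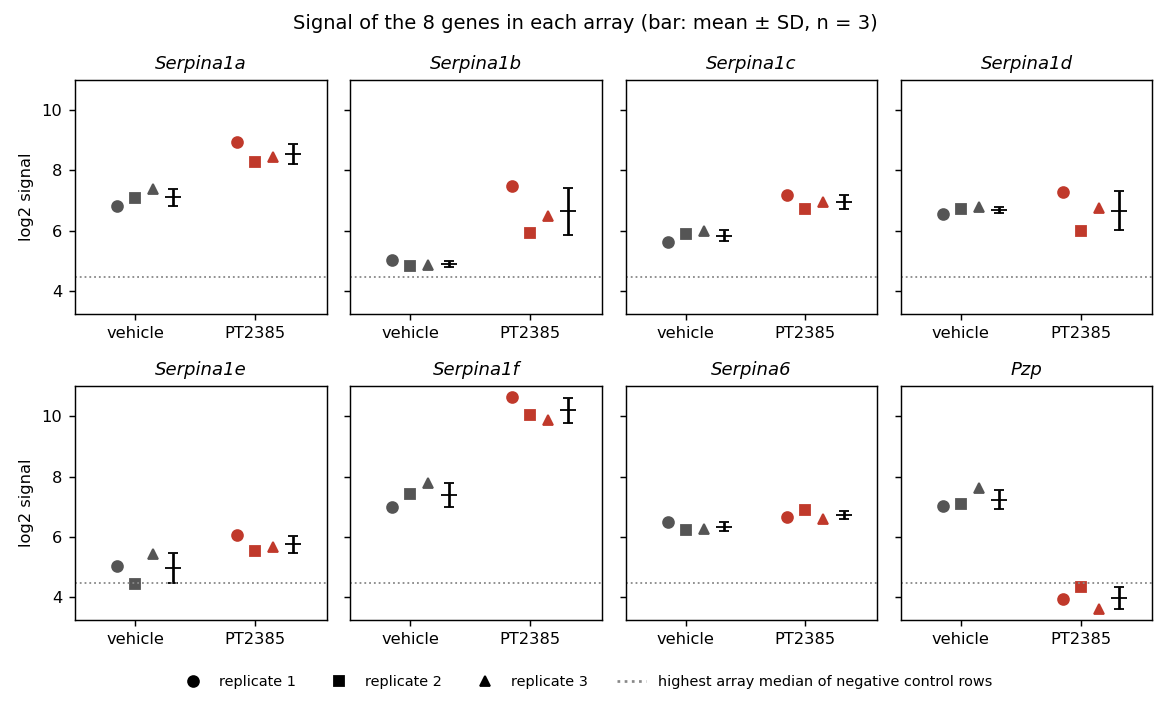
Log2 signal (vertical axis) of the 8 genes in the 3 vehicle arrays (grey) and 3 PT2385 arrays (red), with the mean and SD beside the points. The groups overlap for Serpina1d alone, and the PT2385 values of Pzp lie under the dotted line at 4.47, which marks the negative control rows (the highest of the 6 array medians).

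Serpina1f, the family member that stands apart in sequence and is known from the epididymis, had the largest rise of the 8. Its signal was 6.99, 7.43 and 7.79 under vehicle and 10.66, 10.05 and 9.87 under PT2385. The lowest PT2385 array lay 2.09 above the highest vehicle array. The means were 7.40 ± 0.40 and 10.20 ± 0.41 (SD, n = 3 each), a difference of 2.79 (SE 0.24), or 6.93-fold. Of all clusters, 0.0675% had a larger difference in either direction. Against the vehicle mean, the PT2385 arrays were higher by 3.26, 2.65 and 2.47.

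Among the alpha-1-antitrypsin copies, Serpina1b differed most and was the most variable under PT2385. It had 5.03, 4.82 and 4.85 under vehicle, little above the negative control rows, and 7.48, 5.94 and 6.49 under PT2385. The difference was 1.74 (SE 0.32), or 3.33-fold, and the SD rose from 0.11 to 0.78 (n = 3 each). The groups were apart by 0.91, with PT2385 replicate 1 well above the other two.

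Serpina1a had 6.83, 7.10 and 7.39 under vehicle and 8.93, 8.28 and 8.45 under PT2385. The means were 7.11 ± 0.28 and 8.55 ± 0.34 (SD, n = 3 each), a difference of 1.44 (SE 0.19), or 2.72-fold. Serpina1c had 5.62, 5.90 and 5.99 against 7.19, 6.73 and 6.94, a difference of 1.12 (SE 0.15), or 2.17-fold. The gap between the groups was 0.88 for Serpina1a and 0.75 for Serpina1c. The row of Serpina1a was also the nearest of the other 7 to that of Serpina1c, and the reverse, with a root mean square difference of 0.19 between their centred profiles over the 6 arrays.

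Serpina1e had 5.04, 4.45 and 5.43 under vehicle and 6.07, 5.54 and 5.67 under PT2385. The groups were separated by only 0.10, less than the SD of either group (0.50 and 0.28, n = 3 each). The difference was 0.78 (SE 0.24). Vehicle replicate 2 lay at the level of the negative control rows.

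Serpina1d did not follow the other copies. It had 6.57, 6.71 and 6.79 under vehicle and 7.28, 6.00 and 6.74 under PT2385, so PT2385 replicate 1 was above, replicate 2 below and replicate 3 inside the vehicle range. The difference was -0.02 (SE 0.27), and the SD was 0.11 and 0.64 (n = 3 each). Its sign turned with single arrays: the difference was 0.32 without PT2385 replicate 2 and -0.32 without PT2385 replicate 1.

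Within the groups the 6 Serpina1 rows shared their highest PT2385 array but not a full order. PT2385 replicate 1 was the highest PT2385 array in 6 of 6, as in 36.8% of all clusters, and vehicle replicate 3 was the highest vehicle array in 5 of 6, as in 37.8% of all clusters. All 5 copies from Serpina1a to Serpina1e had replicate 2 as their lowest PT2385 array, while in Serpina1f it was replicate 3. Serpina1a to Serpina1e may share probes, so these rows are not independent of one another.

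Serpina6, the glucocorticoid carrier, differed little. It had 6.51, 6.23 and 6.27 under vehicle and 6.67, 6.88 and 6.60 under PT2385, differing by 0.38 (SE 0.12), or 1.30-fold. The groups did not overlap, but the gap between them was 0.09, under the SD of 0.15 and 0.14 (n = 3 each). Of all clusters, 7.57% had a larger difference in either direction.

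Pzp moved the other way. It had 7.02, 7.09 and 7.62 under vehicle and 3.93, 4.33 and 3.62 under PT2385, with means of 7.24 ± 0.33 and 3.96 ± 0.36 (SD, n = 3 each). The difference was -3.28 (SE 0.21), and 0.045% of all clusters had a larger one in either direction. The highest PT2385 array lay 2.69 below the lowest vehicle array. The PT2385 mean was below 4.28, the lowest of the medians that the negative control rows had in each array, and the difference therefore has only a bound. With each PT2385 array set at the higher of its own Pzp value and its negative control median, Pzp was at least 7.52-fold higher in the vehicle group. The vehicle means of all 8 genes also lay within the 2.41 to 7.47 spanned by the 23 background control rows, so the other differences can be understated too. The median of these control rows was 3.6. All 8 vehicle means were above it and above 4.47, the highest negative control median of an array.

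**Figure D2:**
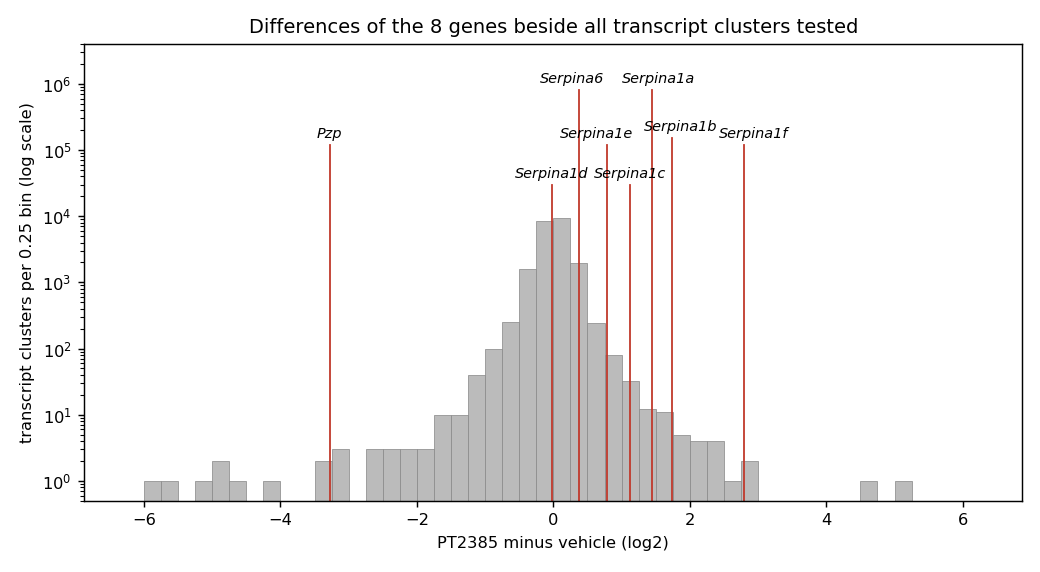
Number of transcript clusters (vertical axis, log scale) per bin of the log2 difference, PT2385 minus vehicle (horizontal axis), with the 8 genes as red lines. Pzp at -3.28 and Serpina1f at 2.79 lie in the sparse tails, while Serpina1d at -0.02 lies at the centre.

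Calls over all clusters were sensitive to single arrays. For the 8 genes, chosen on the same arrays, they are a description and no sign of stability. Serpina1a and Serpina1c were not past the threshold without vehicle replicate 1 or without vehicle replicate 2, when 2 of the 8 genes were called. Serpina1a was also not past it without PT2385 replicate 2, and Serpina1b was past it without PT2385 replicate 1 or 2 and in the fit blocked by replicate number.

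The neighbours on the chromosome were read in the order of the RefSeq gene table. On chromosome 12 the measured order was Ifi27l2b, Ppp4r4, Serpina10, Serpina6, Serpina16, Serpina1f, Serpina1b, Serpina1d, Serpina1a, Serpina1c, Serpina1e, Serpina11, Serpina9 and Serpina12. The 7 genes in this stretch that are not among the 8 had differences from -0.12 to 1.22. By limma 0 of the 7 passed the threshold over all clusters. Serpina16, Serpina9 and Serpina12 had means under the negative control medians in both groups, so a fall in them could be missed. An unadjusted p under 0.05 was found for 4 of the 7 and for 14.5% of all clusters, the background for each such count below. Serpina10, the inhibitor of coagulation factor X that acts with protein Z, had 7.82, 6.77 and 8.57 under vehicle and 8.67, 8.99 and 9.17 under PT2385. Its difference was 1.22 (SE 0.38, limma adjusted p = 0.214), with a wide vehicle group and no overlap. Ppp4r4, a phosphatase regulator gene, differed by 0.64 (SE 0.12, limma adjusted p = 0.0521). Serpina11, next to Serpina1e on the other side, differed by 0.26 (SE 0.11).

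Around Pzp on chromosome 6 the measured genes were Nrip2, Itfg2, Fkbp4, Pzp, A2ml1, Klrb1a and Clec2h. The 6 neighbours differed by -0.47 to 0.26, with 0 past the threshold in limma and 1 at an unadjusted p under 0.05. A2ml1, a relative of Pzp, was below the negative control medians in both groups (3.35 and 3.57), and so was Klrb1a (3.03 and 3.13). A fall in these 2 genes could be missed. Clec2h, with the widest spread, had an SE of 0.77 around its difference of -0.47.

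**Figure D3:**
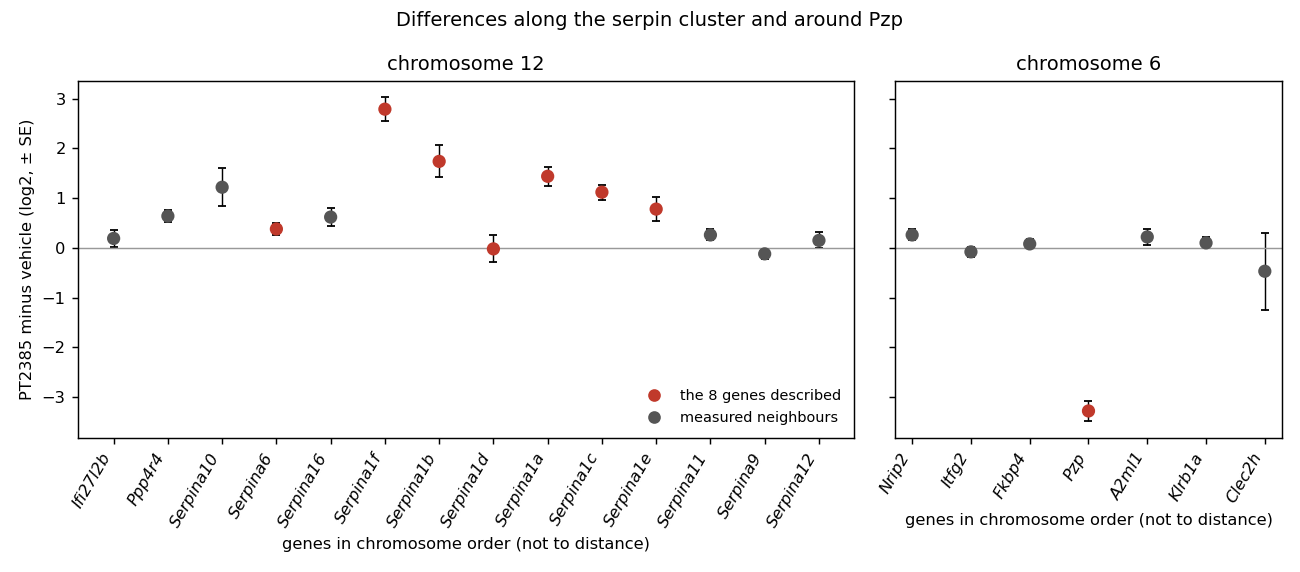
Difference PT2385 minus vehicle (vertical axis, log2, bars ± SE) for measured genes in chromosome order, on chromosome 12 (left) and chromosome 6 (right). The 8 genes described are red and their neighbours grey. Serpina1d at -0.02 lies between Serpina1b at 1.74 and Serpina1a at 1.44. Pzp at -3.28 lies among neighbours from -0.47 to 0.26, of which A2ml1 and Klrb1a were below the negative control medians.

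The other serpins and the relatives of Pzp were read from fixed lists. Of 13 measured further clade A serpins, 0 passed limma's threshold in either direction and 5 had an unadjusted p under 0.05 (14.5% of all clusters), with a median difference of 0.16 beside 0.02 over all clusters. The smallest p values belonged to Serpina16 (0.62, SE 0.18, limma adjusted p = 0.188), a dim row with means of 3.44 and 4.06, under the negative control medians, and to Serpina10 given above. Of the 13, 7 had means at or under the negative control level. Serpina3n, an acute-phase serpin of mice, spread widely under PT2385, with 5.56, 6.73 and 7.75 against 6.28, 6.34 and 6.27.

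Of 35 serpins of other clades 0 passed and 9 had an unadjusted p under 0.05 (14.5% of all clusters), with a median of -0.06. Of the 35, 20 had means at or under the negative control level, so a difference in them could be missed. Serpinb1a, an intracellular inhibitor of neutrophil proteases, had 9.26, 9.56 and 9.44 under vehicle and 8.56, 8.59 and 8.92 under PT2385. Its difference of -0.73 (SE 0.13, limma adjusted p = 0.0519) just missed the threshold. Serpinb9, the granzyme B inhibitor gene, differed by -0.53 (SE 0.12, limma adjusted p = 0.115).

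Of 8 measured genes of the alpha-2-macroglobulin and thioester protein family, 0 passed and 0 had an unadjusted p under 0.05 in limma. A2m itself differed by -0.10 (SE 0.25), and Mug1 and Mug2, the murinoglobulin genes, by 0.01 (SE 0.12) and 0.17 (SE 0.12). Of the 8, 4 had means at or under the negative control level, so a difference in them could be missed. Mug1 and Mug2, at 3.29 to 3.67, were among these. Cd109 (0.17, SE 0.10) and the complement gene C4b (-0.23, SE 0.16) had the smallest p values of the list, with limma adjusted p = 0.499 and 0.541.

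Of 15 proteases that such inhibitors hold, 0 passed and 4 had an unadjusted p under 0.05 in limma (14.5% of all clusters). Elane, the neutrophil elastase gene and main target of alpha-1-antitrypsin, had 6.32, 6.42 and 6.25 against 6.92, 6.64 and 6.22, with overlapping groups. Prtn3 and Ctsg, the other neutrophil serine protease genes, differed by 0.16 (SE 0.09) and 0.03 (SE 0.09). Ctsg was at 3.17 to 3.27 in every array, below the negative control medians, so a difference in it could be missed. Mmp9 (-0.64, SE 0.12, limma adjusted p = 0.0575) and the protein C gene Proc (-0.62, SE 0.13, limma adjusted p = 0.0833) had the smallest p values. Mmp9 was at the negative control level under PT2385 (4.19, 4.31 and 4.34), and against that floor, set as for Pzp, it was at least 1.49-fold higher in the vehicle group. Of 5 receptor genes that clear the complexes, 0 passed and 1, Lrp8, had an unadjusted p under 0.05 (-1.01, SE 0.25, limma adjusted p = 0.135). Lrp1, the clearance receptor of the Pzp type of inhibitor, differed by 0.31 with overlapping groups.

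The partners of Serpina6 were read as 10 genes of glucocorticoid metabolism, receptors and response, of which 0 passed and 3 had an unadjusted p under 0.05 in limma (14.5% of all clusters). Their median was 0.36. Nr3c1, the glucocorticoid receptor gene, differed by -0.25 (SE 0.13, limma adjusted p = 0.436). Hsd11b2, which inactivates glucocorticoids in the distal nephron, had 0.42 (SE 0.13, limma adjusted p = 0.216), and the response gene Tsc22d3 had 0.54 (SE 0.17, limma adjusted p = 0.218).

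Of 14 measured hormone receptors and liver-type transcription factors, 0 were higher and 1 was lower past the threshold. Over all clusters these shares were 0.333% and 0.495%. Of the 14, 3 had an unadjusted p under 0.05 in limma (14.5% of all clusters). Hnf4g, a nuclear receptor gene of kidney and gut, had 7.66, 8.19 and 7.90 against 7.27, 6.94 and 6.96. Its fall of -0.86 (SE 0.15, limma adjusted p = 0.0497) was at the edge of the threshold. The call was lost in 9 of 14 alternatives, and the adjusted p ran from 0.0151 to 0.238, the highest without PT2385 replicate 2. Hnf4a, its better known relative, differed by -0.25. Ghr, the growth hormone receptor gene, differed by -0.07, and Stat5b, which acts downstream of it, by -0.07.

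**Figure D4:**
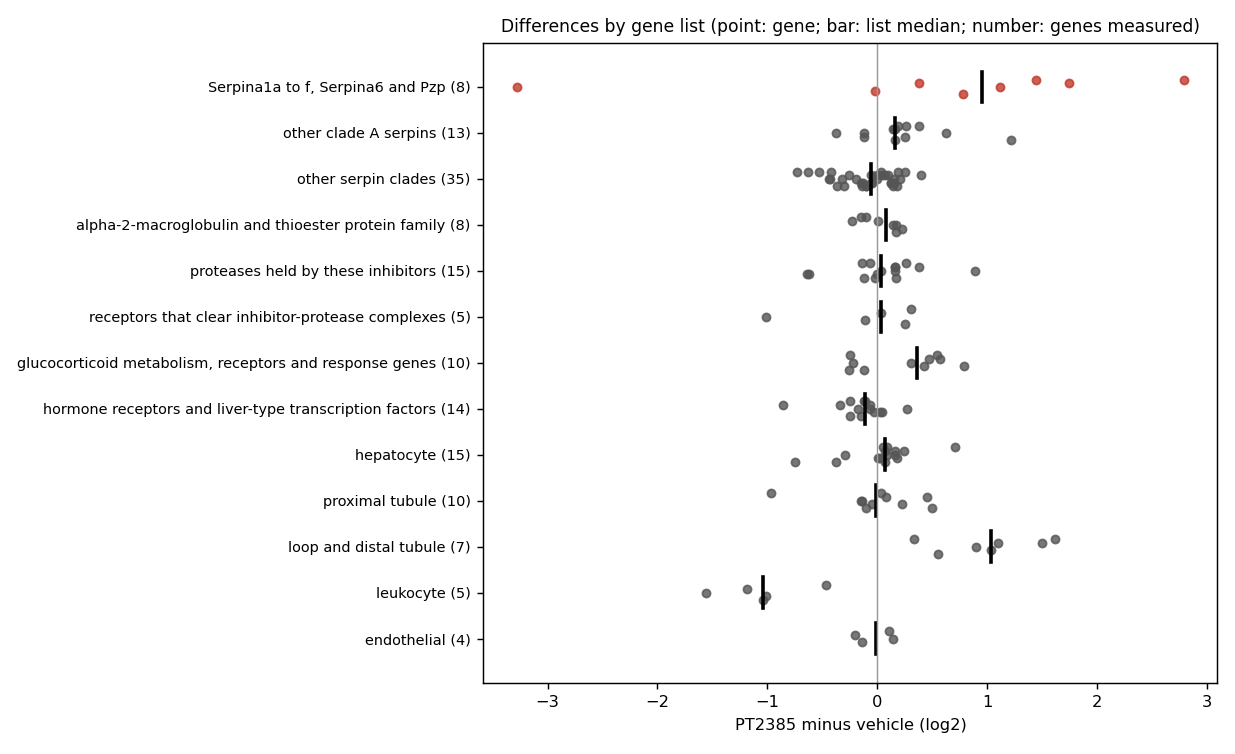
Difference PT2385 minus vehicle (horizontal axis, log2) of each measured gene (points) by list (rows, with the number measured), with the list median as a black bar. The Y-linked genes, with differences from -5.99 to -3.15, are not shown. The 8 genes (red, median 0.95) span -3.28 to 2.79, while the 13 other clade A serpins span -0.38 to 1.22.

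The defining proximal tubule gene Lrp2, an endocytic receptor gene, had signals of 11.12 to 11.94 over the 6 arrays of these labelled tubular cells. Markers of other cells were read beside these values, and their part in the differences was not tested. Of 15 measured hepatocyte markers 0 passed limma's threshold and 1 had an unadjusted p under 0.05. Their summed signal was 13.04 to 13.45 under vehicle and 12.50 to 13.68 under PT2385. The fibrinogen rows Fga and Fgg weigh most in this sum, and they and Fgb were lowest of their group in PT2385 replicate 1, at 10.49, 10.88 and 8.17. Within the PT2385 group, 4 of the 15 markers were highest in that array, Alb and Ttr among them, and 5 were lowest. Alb differed by 0.71 (SE 0.17, limma adjusted p = 0.133) and Ttr by -0.75 (SE 0.34, limma adjusted p = 0.358), while F9 and C9 were at 3.08 to 3.86 in every array, below the negative control medians. The summed signal of the 10 proximal tubule markers was 14.36 to 14.63 under vehicle and 13.96 to 14.95 under PT2385, with PT2385 replicate 1 the highest. Of these, 0 were higher and 1 was lower past the threshold, the organic anion transporter gene Slc22a6 (-0.97, SE 0.10, limma adjusted p = 0.00572). Over all clusters, 0.333% were higher and 0.495% lower past the threshold.

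The 7 loop and distal tubule markers were Umod, Slc12a1, Kcnj1, Cldn16, Slc12a3, Calb1 and Aqp2, the last a collecting duct gene. They had summed signals of 13.98 to 14.45 in the PT2385 arrays against 13.48 to 13.65 in the vehicle arrays. Of the 7, 0 passed limma's threshold and 7 had an unadjusted p under 0.05, as 14.5% of all clusters had. The 5 leukocyte markers summed to 8.48 to 8.89 against 9.51 to 9.93. All 5 had an unadjusted p under 0.05 in limma, as 14.5% of all clusters had. Of the 5, 2 were lower past the threshold, against 0.495% of all clusters. These were the lysozyme gene Lyz2 (-1.19, SE 0.16, limma adjusted p = 0.0202) and Csf3r, a receptor gene of neutrophils (-1.04, SE 0.16, limma adjusted p = 0.0326). The call of Lyz2 was lost without vehicle replicate 3 or PT2385 replicate 2 (adjusted p up to 0.131), and that of Csf3r without any 1 vehicle array or PT2385 replicate 2 (adjusted p up to 0.15). The 4 endothelial markers overlapped, at 10.48 to 10.69 against 10.30 to 10.80.

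The genes most like each member were found by the root mean square difference between array profiles, each centred on its mean over the 6 arrays, and are given as a description without a test. The profiles include the contrast between the groups, so a gene near a member has a like group difference by construction. Nearest to Pzp were the Y-linked Kdm5d (0.32), the fatty acid hydroxylase gene Cyp4a12a (0.32) and Azgp1 (0.48), which differed by -3.15, -3.30 and -2.75 between the groups. Nearest to Serpina1f were the desaturase gene Scd1 (0.19), the adhesion gene Ceacam2 (0.30) and the X-linked Chrdl1 (0.35). The nearest of the other 7 members to Serpina1f was Serpina1b, at 0.67. Apoe was nearest to Serpina1c (0.11) and had 9.32, 9.35 and 9.44 under vehicle and 10.60, 10.06 and 10.43 under PT2385. Next to Serpina1c were Ugt2b34 (0.13) and Cp (0.14). Serpina1b had Igf2 (0.28), Apoa4 (0.32) and Kyat3 (0.36). Serpina1a had Gpx6 (0.17), Mpv17l (0.21) and Mcoln3 (0.23), and Serpina1e had Edn3 (0.13), Apoc3 (0.16) and Slc39a8 (0.16). Serpina1d was nearest to genes with little difference between groups, Abtb1 (0.15), Bco2 (0.17) and Car5a (0.17). Serpina6 ranged over less than 1 log2 unit and was not compared.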

How the data were processed

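Biotin-labelled RNA of 6 samples, 3 per group, was hybridised to Affymetrix whole-transcript arrays. The deposited values are log2 signals, 1 per transcript cluster and array; the authors used Transcriptome Analysis Console, per the submitters' processing notes, with no version. How signals were summarised and normalized, and on which genome build, is not given in the sources used here. Array medians over the clusters tested were 6.20 to 6.25. Of 28846 rows, 6640 control rows were left out and 22206 were tested with no filter; 19572 had 1 symbol, 0 several and 2634 none. Genes with several clusters were read from the brightest.

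Differences are PT2385 minus vehicle from limma 3.58.1 (R 4.3.3; lmFit and eBayes, treatment only, 2-sided), with p-values adjusted by Benjamini-Hochberg over all clusters at a threshold of 0.05. The number of arrays limits the precision. The fit was tested on simulated data.

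The members and lists were chosen with earlier results of these data known. From each list the text names members past the threshold (up to 4) or the 2 smallest p, plus defining genes, chosen after their values were seen. List sums are log2 of summed linear signals. Alternatives were a replicate block, other normalizations, a dim filter, other variance priors, array weights, 1 cluster per gene and the omission of each array. Promoters were aligned with Biopython 1.88. The planned comparison of protein sequences was not run.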

Additional observations from a re-analysis of the deposited data

How the results depend on the processing

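Under all 14 alternatives, 7 of the 8 genes kept the direction of their difference, and all 8 moved by less than the replicate SD. The same arrays chose the genes, so this is a description. The exception in sign was Serpina1d, from -0.35 to 0.32. With arrays left out in turn, Pzp ran from -3.47 to -3.09, Serpina1f from 2.56 to 2.99, Serpina1b from 1.31 to 2.08 and Serpina1a from 1.25 to 1.59.

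Array weights gave 456 calls over all clusters (191 higher, 265 lower) in place of 184, and leaving out 1 array gave 42 to 179 (14 to 76 higher, 28 to 117 lower). Between 2 and 5 of the 8 genes were then called. Non-overlapping clusters rose from 4599 to between 6017 and 7415 with 1 array fewer, as fewer values must separate. Of the hormone receptor and factor list, 0 were called with the replicate block, quantile or cyclic loess normalization or 1 cluster per gene, and 0 to 1 with an array left out. Of other serpin clades, 1 (Serpinb1a) was called with median-centred arrays, a trended robust prior or array weights, and 0 to 1 with an array left out. Of the proteases, 1 (Mmp9) was called with centring, quantile or loess normalization and 2 (with Proc) with array weights. The causes were not tested.

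Deviations from the group means were little correlated between arrays with the same replicate number (0.138, 0.0252 and -0.0587). This cannot settle whether the samples were paired. The replicate block gave 178 calls over all clusters, 5 of the 8 genes and 1 receptor gene (Lrp8). The mean of several clusters per gene could not differ here, since each of the 8 had 1 cluster.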
